A study of Mus musculus with 19 samples.

Results

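The genes described here are those of the mouse mitochondrial genome, chosen as the GENCODE M21 genes on chrM whose symbol begins with mt-. They are 37 of the 54749 genes with a target in the ladder libraries, and comprise 13 protein genes, 2 ribosomal RNA (rRNA) genes and 22 transfer RNA (tRNA) genes. They were measured in neural progenitor cells, the dividing cells that give rise to neurons and glia. The cells came from the cortex of mouse embryos that were wild type (WT) or carried a conditional knockout of Mettl14 (KO), and grew on Matrigel in Neurobasal medium that held 20 ng/ml of FGF2 and as much EGF. Mettl14 is a subunit of the enzyme complex that writes N6-methyladenosine into mRNA, and the labels name neither the Cre line nor the age of the embryos. The short-read libraries were made from mRNA picked from total RNA on beads, and the nanopore libraries, per the labels, from total RNA. The 4 WT and 4 KO ladder libraries come from mRNA parted by length into 7 bands, each with its own index, and read as pairs of 75 bp. The 3 standard WT libraries were not parted by length and were read as single ends of 50 bp. Nanopore sequencing covered native RNA and direct cDNA with 2 replicates per genotype, deposited as assembled structures in which the replicates are pooled. The labels do not say which replicates came from separate embryos or cultures, so p-values measure the spread between these libraries, which may be technical.

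The mitochondrial genome is a small circle transcribed from both strands into long precursors that run through many genes. The tRNA genes lie between the protein and rRNA genes, and cutting the tRNAs out frees the mRNAs and rRNAs on either side. The RNA polymerase Polrmt starts transcription with Tfam and Tfb2m, and the Lrpprc and Slirp complex keeps most of the mRNAs stable. The protein genes all encode subunits of the respiratory chain or of ATP synthase, and mature mitochondrial mRNAs are, with exceptions, polyadenylated.

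Of the 37 genes, 28 lie on the + strand of the reference and 9 on the - strand. On the - strand are mt-Nd6 and the tRNA genes mt-Tq, mt-Ta, mt-Tn, mt-Tc, mt-Ty, mt-Ts1, mt-Te and mt-Tp. Several neighbours share bases, which bears on how reads can be told apart, since the labels do not say whether the libraries kept the strand. The longest overlap is that of mt-Atp8 and mt-Atp6, which are read in different frames from 1 mRNA. The sequences below, from GENCODE M21 transcripts on GRCm38, show 4 overlaps, 3 between protein genes and that of mt-Co1 with the opposite mt-Ts1, on the + strand from 5′ to 3′, with bases that belong to both genes in capitals.
mt-Atp8 and mt-Atp6, chrM:7912-7984: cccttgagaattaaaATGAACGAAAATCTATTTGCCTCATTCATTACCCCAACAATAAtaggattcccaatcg
mt-Nd4l and mt-Nd4, chrM:10152-10188: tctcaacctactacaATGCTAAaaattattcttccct
mt-Nd5 and mt-Nd6, chrM:13537-13580: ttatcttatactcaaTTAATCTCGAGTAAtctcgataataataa
mt-Co1 and mt-Ts1, chrM:6855-6887: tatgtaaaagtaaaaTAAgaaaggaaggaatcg
The shared stretches measured 43 bases for mt-Atp8 with mt-Atp6, 7 bases for mt-Nd4l with mt-Nd4, 14 bases for mt-Nd5 with mt-Nd6 and 3 bases for mt-Co1 with mt-Ts1. mt-Atp6 and mt-Co3 share a single base as well, at position 8607, which is not drawn. In the first and the second of these the capitals open with the ATG of the downstream gene and end with the stop codon TAA of the upstream gene. Reads across the mt-Nd5 and mt-Nd6 overlap, or across mt-Co1 and mt-Ts1, cannot be given to a strand here.

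A second source of ambiguity is a nuclear copy of part of the mitochondrial genome on chromosome 1 of GRCm38, annotated as 7 pseudogenes within chr1:24611535-24616197. Without a difference, it holds 681 of the 684 bases of mt-Co2, 783 of the 784 of mt-Co3, 678 of the 681 of mt-Atp6, 294 of the 297 of mt-Nd4l and 876 of the 1378 of mt-Nd4. The copy of mt-Nd3, Gm28438, differs from the gene at a single base, T3C counted from the first base of mt-Nd3, shown in capitals in the 18 bases that open the copied stretch.
mt-Nd3, chrM:9459-9476: atTaacctgtacactgtt
Gm28438, chr1:24613102-24613119 on the - strand: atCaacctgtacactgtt
The copy Gm29216 takes up 31.8% of mt-Co1, from base 1054 to base 1545, with 6 differences, all near the start of that stretch (T1056A, C1057T, A1059G, A1060G, C1062A and A1066T, counted from the first base of mt-Co1). In all, 17 pseudogenes aligned to a mitochondrial gene over 100 bases or more at 90% identity or more. The share of 31-base words that also occur in another gene was 100% for mt-Co2, 99.9% for mt-Co3, 99.5% for mt-Atp6, 98.9% for mt-Nd4l, 98.1% for mt-Nd3, 63.9% for mt-Co1 and 62.8% for mt-Nd4. It was 16.8% for mt-Nd5, 13.5% for mt-Nd2, under 10% for mt-Atp8, mt-Nd6, mt-Cytb and mt-Rnr2, and 0 for mt-Nd1 and mt-Rnr1.

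Mitochondrial genes took a small share of the ladder libraries. Their estimated counts made up 0.0900%, 0.0871%, 0.0623% and 0.0627% of all counts in WT replicates 1 to 4, and 0.0327%, 0.0319%, 0.0343% and 0.0375% in KO replicates 1 to 4. Every KO library lay below every WT library, and the mean was 0.0755% ± 0.0151 (SD, n = 4) in WT and 0.0341% ± 0.00251 (SD, n = 4) in KO. The rRNA genes took 0.0404% ± 0.0111 in WT and 0.0124% ± 0.00145 in KO, a ratio of 3.25. The protein genes took 0.0346% ± 0.00435 in WT and 0.0214% ± 0.00119 in KO, a ratio of 1.62. The tRNA genes took 0.000523% ± 9.90e-05 in WT and 0.000277% ± 3.26e-05 in KO. In bulk samples, fewer cells of a type and less RNA per cell cannot be told apart. The rRNA genes of the nuclear genome moved the same way. Their share of counts was 6.98% ± 1.96 (SD, n = 4) in WT and 2.77% ± 0.222 (SD, n = 4) in KO, and their part in the mitochondrial values was not tested.

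Gene by gene, the comparison of KO with WT asks which mitochondrial transcripts go with the loss of Mettl14. Mettl14 itself checks the labels, and was at 24.9, 20.2, 28.4 and 27.6 CPM (counts per 1000000 after TMM scaling) in the WT libraries and at 6.13, 8.07, 6.62 and 6.90 CPM in the KO libraries. Of the 37 mitochondrial genes, 19 passed the filter on low counts and were tested: all 13 protein genes, both rRNA genes and 4 tRNA genes. At an adjusted p under 0.05 in edgeR's quasi-likelihood test, 12 of the 19 were lower in KO, 0 were higher and 7 did not pass. Over all 18687 genes tested, 27.2% were called lower, 26.4% higher and 53.6% in either direction. Their median log2 fold change was -0.97, beside -0.03 over all genes tested. The KO and WT libraries did not overlap in the same 12 genes, while 23.5% of all genes tested were lower without overlap. Both mt-Tc and mt-Ty passed the filter through the WT libraries alone, so that they had to be lower in KO to differ. Of the 17 others 10 were lower, with a median log2 fold change of -0.78.

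**Figure D1:**
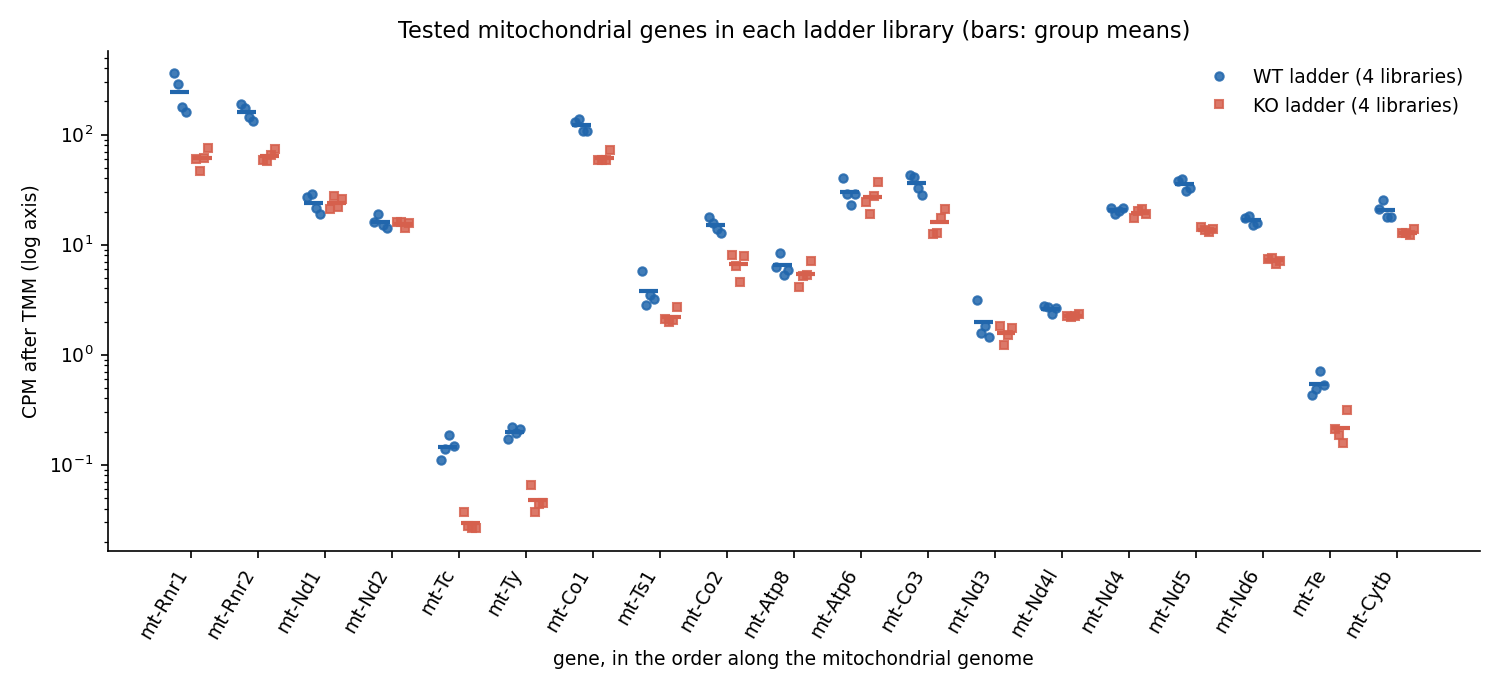
CPM after TMM on a log axis for the 19 tested mitochondrial genes, in their order along the genome, in the 4 WT (circles) and 4 KO (squares) ladder libraries, with horizontal bars for group means. The KO squares lie below all WT circles for 12 genes, among them both rRNA genes, mt-Co1, mt-Nd5 and mt-Nd6, and mix with them for mt-Nd1, mt-Nd2, mt-Atp8, mt-Atp6, mt-Nd3, mt-Nd4l and mt-Nd4.

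In WT the rRNA genes had the highest counts of the members. The small-subunit rRNA gene mt-Rnr1 (chrM:70-1024, +) was at 359, 287, 177 and 161 CPM in WT replicates 1 to 4 and at 59.7, 46.4, 61.2 and 75.8 CPM in KO replicates 1 to 4. The WT libraries differed among themselves, yet the lowest of them lay above the highest KO library. Its log2 fold change was -2.02 ± 0.26 (SE, edgeR adjusted p = 5.97e-05), a level 4.05-fold lower in KO. The large-subunit rRNA gene mt-Rnr2 (chrM:1094-2675, +) was at 189, 174, 146 and 133 CPM in WT and at 58.7, 57.0, 64.7 and 73.3 CPM in KO. It fell by 1.34 on the log2 scale (SE 0.14, edgeR adjusted p = 8.89e-06). CT010467.1, an rRNA gene of the nuclear genome, changed by -1.35 on the same scale (edgeR adjusted p = 0.000292), from 44619 to 98252 CPM in WT to between 25427 and 32607 CPM in KO. With all rRNA genes left out of the totals and the fit, the 10 other mitochondrial calls were made again.

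All 3 mitochondrial genes of cytochrome c oxidase, the enzyme that passes electrons to oxygen, were lower in KO. mt-Co1 (chrM:5328-6872, +), the subunit with the catalytic centre, was at 130, 139, 107 and 108 CPM in WT and at 58.4, 59.0, 58.2 and 72.0 CPM in KO. Its log2 fold change of -0.97 ± 0.12 (SE, edgeR adjusted p = 5.24e-05) corresponds to a level 1.96-fold lower. mt-Co2 (chrM:7013-7696, +), which takes up electrons from cytochrome c, was at 17.8, 15.8, 14.0 and 12.9 CPM in WT and at 7.98, 6.38, 4.59 and 7.94 CPM in KO. mt-Co3 (chrM:8607-9390, +) was at 42.9, 40.8, 32.6 and 28.3 CPM in WT and at 12.6, 12.8, 17.6 and 20.9 CPM in KO. Their log2 fold changes were -1.17 ± 0.17 (SE, edgeR adjusted p = 0.000171) for mt-Co2 and -1.18 ± 0.19 (SE, edgeR adjusted p = 0.000272) for mt-Co3, and the groups did not overlap for either. The values of mt-Co2 rest on the smaller part of its reads, since its nuclear copy Gm28661 held 78.6% to 89.5% of the counts of the pair. Summed with that copy, mt-Co2 fell by 0.66 on the log2 scale (SE 0.24, edgeR adjusted p = 0.0395), and the groups overlapped.

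The 7 mitochondrial genes of complex I, the NADH dehydrogenase, fell into different patterns. mt-Nd5 (chrM:11742-13565, +) was at 37.9, 39.8, 31.04 and 32.6 CPM in WT and at 14.3, 13.7, 13.03 and 13.8 CPM in KO, and its opposite neighbour mt-Nd6 (chrM:13552-14070, -) at 17.5, 18.3, 15.2 and 15.7 CPM in WT and at 7.42, 7.64, 6.61 and 7.06 CPM in KO. Both were lower in every KO library by a margin well beyond the spread within a genotype. The log2 fold changes were -1.36 ± 0.11 (SE, edgeR adjusted p = 1.08e-06) for mt-Nd5 and -1.21 ± 0.10 (SE, edgeR adjusted p = 1.73e-06) for mt-Nd6. Without strand information, reads on mt-Nd6 cannot be told apart from RNA of the strand of mt-Nd5, so the 2 values cannot be taken as independent. mt-Nd1 (chrM:2751-3707, +), which has no 31-base word in common with another gene, was at 26.9, 28.7, 21.6 and 18.9 CPM in WT and at 20.98, 27.4, 21.9 and 25.9 CPM in KO. Its log2 fold change was 0.00 ± 0.15 (SE, edgeR adjusted p = 0.989). mt-Nd2 (chrM:3914-4951, +) ranged from 14.2 to 19.0 CPM over the WT and from 14.2 to 16.2 CPM over the KO libraries, with a log2 fold change of -0.05 ± 0.11 (SE, edgeR adjusted p = 0.718). The other members of complex I that did not pass were mt-Nd4 (chrM:10167-11544, +) at -0.08 ± 0.10, mt-Nd4l (chrM:9877-10173, +) at -0.21 ± 0.11 and mt-Nd3 (chrM:9459-9806, +) at -0.33 ± 0.24 (log2 fold change ± SE, edgeR adjusted p from 0.113 to 0.509). mt-Nd4 and mt-Nd4l share an mRNA and overlapped between the genotypes in their levels, at 17.4 to 21.6 and 2.19 to 2.79 CPM over the 8 libraries.

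mt-Cytb (chrM:14145-15288, +), the mitochondrial subunit of complex III, was at 21.3, 25.6, 18.0 and 17.9 CPM in WT and at 12.9, 12.7, 12.2 and 13.8 CPM in KO. It fell by 0.68 on the log2 scale (SE 0.12, edgeR adjusted p = 0.000698), the smallest fall among the 6 protein genes called. The ATP synthase genes mt-Atp8 (chrM:7766-7969, +) and mt-Atp6 (chrM:7927-8607, +) did not pass. mt-Atp8 was at 6.28, 8.43, 5.33 and 5.88 CPM in WT and at 4.09, 5.22, 5.31 and 7.17 CPM in KO, with a log2 fold change of -0.25 ± 0.18 (SE, edgeR adjusted p = 0.272). mt-Atp6 was at 40.4, 28.6, 23.0 and 29.1 CPM in WT and at 24.5, 18.8, 28.0 and 37.0 CPM in KO, with -0.16 ± 0.21 (SE, edgeR adjusted p = 0.539). The highest KO library of mt-Atp6 lay above 3 of the 4 WT libraries.

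The tRNA genes, which encode the adaptors of mitochondrial translation, had few counts. The 4 that were tested all lie on the - strand. mt-Ts1 and mt-Te were lower in KO, and so were mt-Tc and mt-Ty, for which the filter on low counts fixed that direction. They are shown 5′ to 3′ on that strand.
mt-Tc, chrM:5192-5257: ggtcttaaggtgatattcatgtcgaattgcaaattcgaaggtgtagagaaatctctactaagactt
mt-Ty, chrM:5260-5326: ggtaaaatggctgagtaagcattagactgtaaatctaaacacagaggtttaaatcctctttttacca
mt-Ts1, chrM:6870-6938: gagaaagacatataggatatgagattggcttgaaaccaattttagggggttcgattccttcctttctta
mt-Te, chrM:14071-14139: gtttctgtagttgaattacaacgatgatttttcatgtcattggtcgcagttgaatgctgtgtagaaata
mt-Ts1, a serine tRNA that follows the 3′ end of mt-Co1 on the opposite strand, was at 5.72, 2.82, 3.48 and 3.24 CPM in WT and at 2.11, 1.97, 2.06 and 2.72 CPM in KO (log2 fold change -0.78 ± 0.21 SE, edgeR adjusted p = 0.00814). mt-Te, the glutamate tRNA between mt-Nd6 and mt-Cytb, was at 0.433, 0.486, 0.707 and 0.535 CPM in WT and at 0.213, 0.185, 0.159 and 0.313 CPM in KO (log2 fold change -1.31 ± 0.24 SE, edgeR adjusted p = 0.000651). The cysteine tRNA mt-Tc had 11 to 23 counts in a WT library and 3 to 4 in a KO library, and the tyrosine tRNA mt-Ty 17 to 27 and 4 to 7 counts, so their values rest on few reads. Without strand information, reads on mt-Ts1 cannot be told apart from the 3′ end of mt-Co1 mRNA, nor reads on mt-Te from mRNA that runs from mt-Nd5 towards mt-Cytb. The 18 tRNA genes that were not tested had at most 14 counts in a WT and 6 in a KO library. Summed over the libraries they had 260 counts in WT and 116 in KO, with the WT sum above the KO sum in 14 genes, below it in 2 and equal to it in 2. mt-Tv, which lies between the rRNA genes, had 0 counts in all 8 libraries, which allows up to 0.00335 CPM over their summed depth.

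Along the genome, on values of the genes alone, the + strand stretch from mt-Atp8 to mt-Nd4 held 6 tested genes, of which only mt-Co3 passed, and mt-Nd1 and mt-Nd2 likewise did not pass, while the flanking rRNA genes, mt-Co1, mt-Co2 and the genes from mt-Nd5 to mt-Cytb were lower. Summed with its nuclear copy, mt-Atp6 of that stretch passed as well, with a log2 fold change of -0.49 (edgeR adjusted p = 0.0287). Leaving out mt-Tc and mt-Ty, all 3 tested genes of the - strand were lower in KO, with a median log2 fold change of -1.21, and 7 of the 14 tested genes of the + strand, with a median of -0.51. The strand here is that of the annotated gene, since reads on mt-Ts1, mt-Nd6 and mt-Te cannot be given to a strand. The difference between strands or stretches was not tested. Beside a TPM (transcripts per 1000000, per length) of 16.6 ± 3.13 in WT for mt-Nd5, KO had 6.81 ± 0.643 (SD, n = 4), the lowest mean of the 13 protein genes in KO though within the spread of mt-Nd3, while mt-Nd1 was at 23.6 ± 5.53 TPM in WT and 25.0 ± 4.31 TPM in KO.

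**Figure D2:**
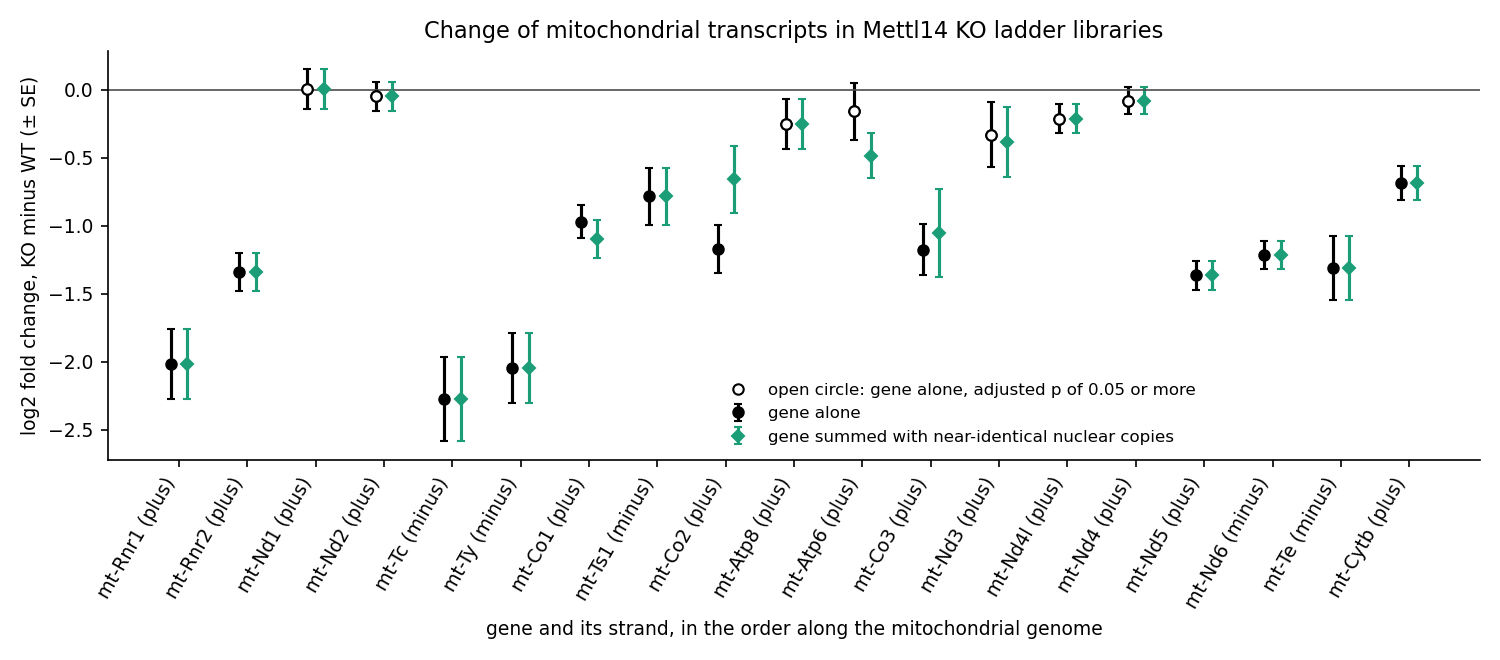
Log2 fold change of KO minus WT with its SE for the 19 tested mitochondrial genes in genome order, with the strand in brackets, for the gene alone (circles, open where the adjusted p was 0.05 or more) and for the gene summed with its near-identical nuclear copies (diamonds). mt-Co2 moves from -1.17 to -0.66 and mt-Atp6 from -0.16 to -0.49 on summing, while genes without a near-identical copy stay nearly in place.

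Counts on the nuclear copies varied between libraries of 1 genotype. Of the pseudogenes, 4 reached 10 CPM in a ladder library, all on chromosome 1. Gm28661 (chr1:24614885-24615565, -), the copy of mt-Co2, was at 118, 58.2, 51.5 and 53.1 CPM in WT and at 53.7, 37.5, 39.1 and 58.5 CPM in KO, above mt-Co2 itself in each of the 8 libraries, and held 78.6% to 89.5% of the counts of the pair. In the standard libraries it held 13.1%, 14.9% and 0.856% of them. Gm28437 (chr1:24613189-24613971, -), the copy of mt-Co3, was at 39.3, 5.30, 1.35 and 5.36 CPM in WT and at 17.9, 3.36, 1.30 and 7.75 CPM in KO. Gm10925 (chr1:24613974-24614651, -), the copy of mt-Atp6, was at 5.21, 24.9, 10.6 and 6.36 CPM in WT and at 0.879, 10.5, 0.0298 and 0.451 CPM in KO. In KO the SD of Gm10925 was 5.04 CPM around a mean of 2.96 CPM, and that of mt-Atp6 7.61 CPM around a mean of 27.1 CPM (n = 4). Gm29216 (chr1:24615706-24616197, -), the copy of part of mt-Co1, was at 43.4, 13.1, 16.1 and 14.1 CPM in WT and at 4.08, 4.90, 4.27 and 6.37 CPM in KO, and was the only one of the 4 past the threshold (log2 fold change -2.14 ± 0.42 SE, edgeR adjusted p = 0.00287).

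Summing each gene with its near-identical copies takes the split out of the comparison. The sums of mt-Co2 and Gm28661 were 135, 74.0, 65.5 and 66.0 CPM in WT and 61.6, 43.9, 43.7 and 66.5 CPM in KO, and overlapped. On these sums, 13 of the 19 genes were lower in KO, the 12 above and mt-Atp6, beside the same 27.2% of all genes tested. mt-Atp6 with its copy was at 45.6, 53.5, 33.6 and 35.5 CPM in WT and at 25.3, 29.3, 28.0 and 37.4 CPM in KO, overlapping between the genotypes, with a log2 fold change of -0.49 ± 0.17 (SE, edgeR adjusted p = 0.0287). The fall of mt-Co2 was smaller on this count, at -0.66 ± 0.24 (SE, edgeR adjusted p = 0.0395), and that of mt-Co1 was -1.10 ± 0.14 (SE, edgeR adjusted p = 4.91e-05). Genes without such a copy kept nearly the same values, among them mt-Rnr1 at -2.02 and mt-Cytb at -0.68.

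**Figure D3:**
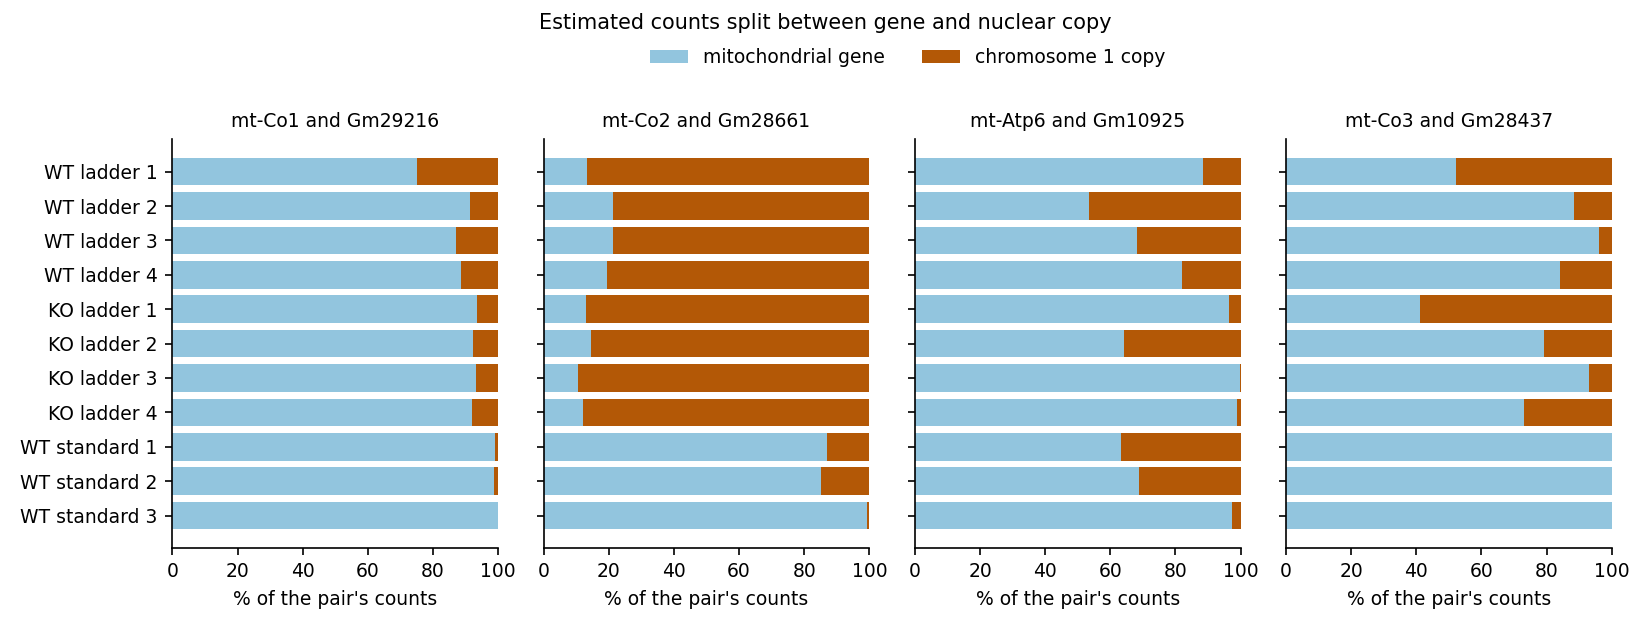
Share of the estimated counts of each pair, in percent, given to the mitochondrial gene (light) and to its chromosome 1 copy (dark) in the 4 WT ladder, 4 KO ladder and 3 WT standard libraries. The copy holds 78.6% to 89.5% of the mt-Co2 pair in the ladder libraries and at most 14.9% in the standard libraries, and its part of the mt-Atp6 pair ranges from 0.106% to 46.5% over the ladder libraries.

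The comparison of ladder with standard WT libraries gives these transcripts in the same kind of cells under different library types. In the standard libraries the 13 protein genes took 2.22%, 2.03% and 1.96% of all counts, 2.07% ± 0.134 (SD, n = 3), which is 59.8-fold the share in WT ladder libraries and 47.4-fold when the near-identical copies are added on both sides. These totals cover unlike sets of targets. Assembled targets, which the standard files lack, took 12.9% to 13.4% of the counts in WT ladder libraries. The rRNA genes of the nuclear genome took 6.98% there and 0% in standard libraries. The mitochondrial rRNA and tRNA genes had no target in the standard files used here. Over the targets that all short-read files share, 12 of the 13 genes were lower in the ladder libraries at an adjusted p under 0.05 in edgeR, 0 were higher and mt-Atp8 did not pass, while 30.3% of the 16131 genes tested were lower, 30.8% higher and 61.1% called in either direction. Those 12 were without overlap between the library types, as were 29.7% of all genes in that direction. Read layout, read length, depth and sequencer go with the library type and cannot be told apart from it.

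The gap differed in size between the genes. mt-Co2 was at 25.2, 22.7, 20.7 and 18.0 CPM in WT ladder and at 2002, 1678 and 1772 CPM in standard libraries, a log2 fold change of -6.39 ± 0.17 (SE, edgeR adjusted p = 2.77e-07) that became -4.05 when its copies were added. mt-Nd1, which has no copy, was at 37.9, 41.2, 31.9 and 26.5 CPM in ladder and at 2336, 1997 and 1954 CPM in standard libraries, with -5.93 ± 0.20 (SE, edgeR adjusted p = 9.02e-07), or 61.0-fold lower. mt-Nd6, the protein gene annotated on the other strand, had the smallest gap of the 12, with -3.41 ± 0.13 (SE, edgeR adjusted p = 1.80e-06). It was at 290, 239 and 233 CPM in standard and at 24.6, 26.3, 22.5 and 22.1 CPM in ladder libraries. Its reads cannot be given to a strand here. A long-read structure that began at the first base of mt-Nd5 (chrM:11742-14144) covered the whole of mt-Nd6. That structure was labelled -, the strand of mt-Nd6. The part of either strand in the gap of mt-Nd6 was not tested. The 9 remaining genes lay between -4.61 for mt-Nd5 and -6.21 for mt-Nd3. mt-Atp8, the shortest protein gene at 204 bases, was at 8.86, 12.1, 7.88 and 8.25 CPM in ladder and at 7.82, 6.39 and 5.80 CPM in standard libraries, a log2 fold change of 0.48 ± 0.22 (SE, edgeR adjusted p = 0.0907). Counted from the lowest of the 16131 genes by log2 fold change, it took rank 10372, while the 12 others took ranks between 179 and 803. Without standard replicate 1, mt-Atp8 was called higher in ladder libraries, at 0.63 (edgeR adjusted p = 0.0322). On deposited TPM, where limma put the median of all genes at -1.52, it was called lower at -1.55, and stood at -0.03 relative to that median.

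**Figure D4:**
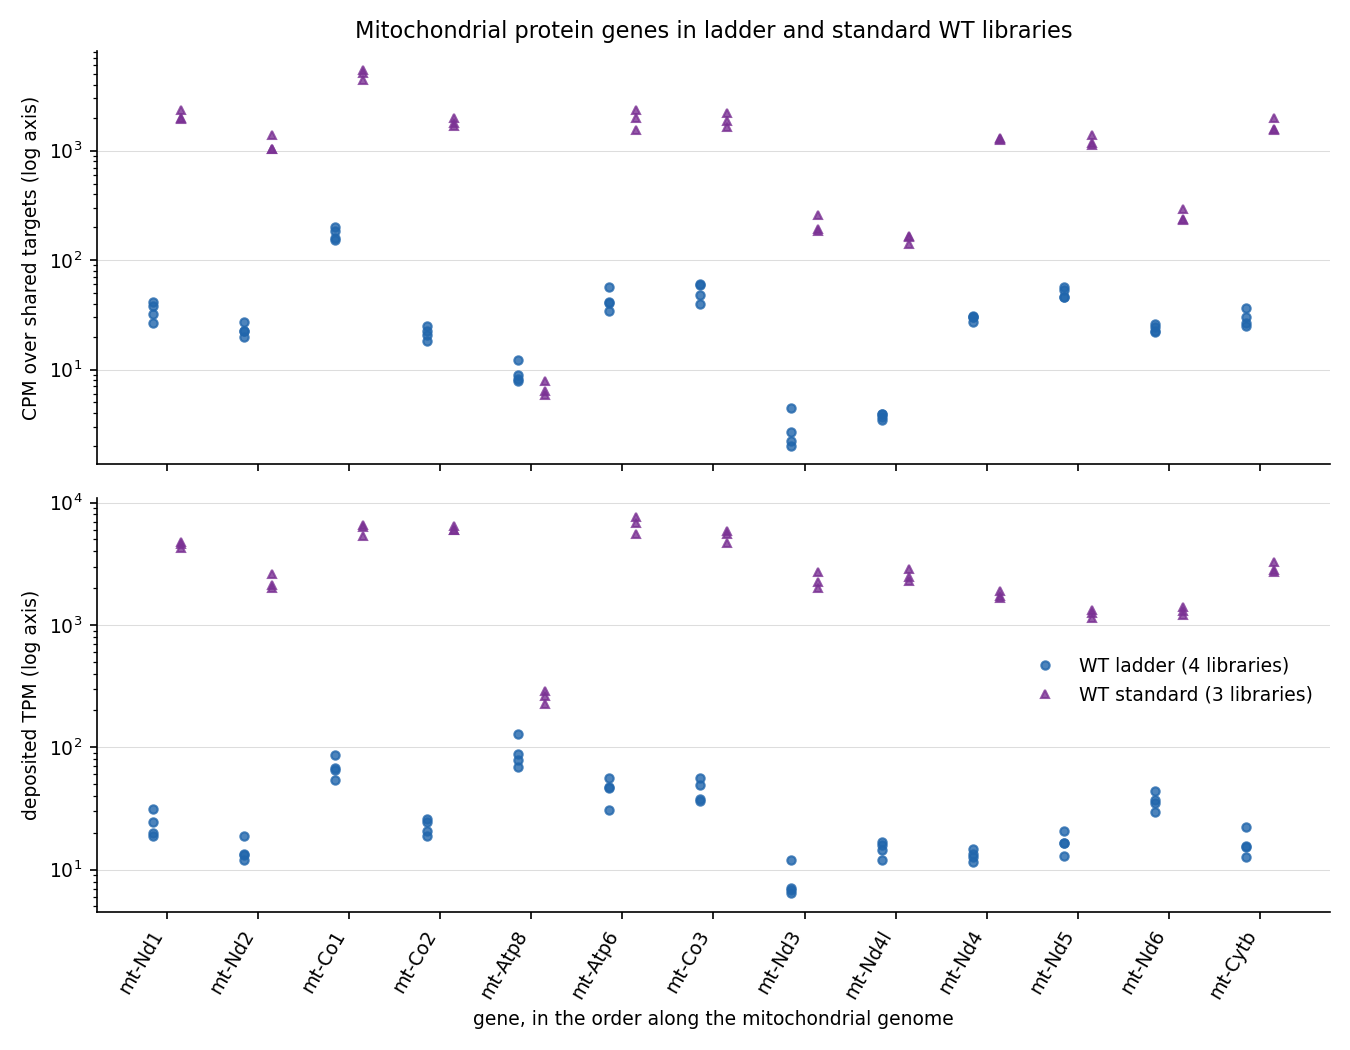
CPM over shared targets (upper panel) and deposited TPM (lower panel), both on log axes, of the 13 mitochondrial protein genes in the 4 WT ladder libraries (circles) and 3 WT standard libraries (triangles). Standard libraries lie above all ladder libraries for 12 genes in CPM, while mt-Atp8 is at 5.80 to 7.82 CPM in standard and 7.88 to 12.1 CPM in ladder libraries.

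Levels of the 13 protein genes among themselves also differed with the library type, on TPM of the genes alone, without their nuclear copies. For mt-Co2, the copy Gm28661 held 78.6% to 89.5% of the pair's counts in ladder libraries. In standard libraries it held 13.1%, 14.9% and 0.856%. The part of this split in the order of the genes was not tested. In WT ladder libraries the order by mean TPM began with mt-Atp8 at 91.0 ± 26.2, mt-Co1 at 68.6 ± 13.6, mt-Atp6 at 45.3 ± 10.4, mt-Co3 at 45.2 ± 9.54 and mt-Nd6 at 36.4 ± 5.85 (SD, n = 4), and ended with mt-Nd2 at 14.4 ± 2.93, mt-Nd4 at 13.2 ± 1.35 and mt-Nd3 at 8.10 ± 2.61. Neighbours in this order differed by less than the sum of their SDs except mt-Nd6 from mt-Nd1 and mt-Nd4 from mt-Nd3. In KO ladder libraries mt-Atp8 at 84.6 ± 16.3, mt-Atp6 at 42.6 ± 9.64 and mt-Co1 at 36.8 ± 2.95 TPM led, and mt-Nd1 at 25.0 ± 4.31 took the fourth place. In the standard libraries mt-Atp6 at 6649 ± 1007, mt-Co2 at 6148 ± 228, mt-Co1 at 6088 ± 625 and mt-Co3 at 5375 ± 646 TPM (SD, n = 3) led without differing beyond their spread, and mt-Atp8 was last at 260.0 ± 31.2. The effective length by which kallisto divides was 51.1 to 57.6 bases for mt-Atp8 in the ladder files and 42.1 in the standard files, so its TPM rests on a short stretch. A short miRNA gene, Mir6236, took 14.6% to 23.8% of all TPM in the ladder libraries, within a total that is fixed for each library.

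Nuclear genes that run mitochondrial gene expression gave no common direction. Of 95 listed genes 93 were tested, and 32 were higher in KO, 18 lower and 43 not past the threshold, with a median log2 fold change of 0.14. The share called was 53.8%, near the 53.6% over all genes tested, with 34.4% higher and 19.4% lower beside 26.4% and 27.2% over all genes. Read against the same 53.6%, 54.5% of the transcription and of the translation factor list, 36.4% of the replication, 52.0% of the processing, 46.7% of the stability and 70.0% of the synthetase list were called, on 11 to 25 genes each and with no test of the difference. The starters of transcription did not pass: Polrmt was at 0.35 ± 0.19 (edgeR adjusted p = 0.141), Tfam at -0.04 ± 0.09 (adjusted p = 0.711) and Tfb2m at 0.01 ± 0.18 (adjusted p = 0.963), as log2 fold change ± SE. Of the 11 genes of mitochondrial transcription, 3 rose and 3 fell, with the elongation factor Tefm at 0.74 and Mterf4, which helps build the large ribosomal subunit, at 0.89, beside Mterf2 at -0.83 and Mterf1a at -0.33, the last a call (edgeR adjusted p = 0.0219) that was lost in 6 alternatives with adjusted p up to 0.176. Of the 11 replication genes 2 rose and 2 fell, namely the topoisomerase Top1mt at 0.40 and Rnaseh1 at 0.26, against the nuclease Dna2 at -0.53 and Primpol at -0.39. The call for Rnaseh1 (edgeR adjusted p = 0.0220) was lost in 7 alternatives, the replicate block among them, with adjusted p up to 0.0726. For the stability of mitochondrial mRNA, Lrpprc was at 0.24 ± 0.16 (edgeR adjusted p = 0.219) and Slirp at -0.10 ± 0.14 (adjusted p = 0.571), neither past the threshold. Of 15 stability and decay genes tested, 5 rose and 2 fell. Pde12, which takes adenines off RNA tails, was at 19.5, 15.3, 23.0 and 21.4 CPM in WT and at 42.6, 49.3, 50.5 and 46.7 CPM in KO (log2 fold change 1.25 ± 0.13 SE, edgeR adjusted p = 1.08e-05). The helicase Supv3l1 rose by 0.65, while its partner, the exoribonuclease Pnpt1, fell by 0.68 on the log2 scale (edgeR adjusted p = 0.000256), from 52.2 to 55.3 CPM in WT to between 28.4 and 36.5 CPM in KO. Ptcd3 fell by 0.35.

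Among 25 tested genes of RNA processing and modification, 10 rose and 3 fell. The pseudouridine synthase Pus1 at 1.15 ± 0.09 (SE, edgeR adjusted p = 1.33e-06) and Mrm3, which in human cells methylates the large rRNA, at 1.13 ± 0.10 (SE, edgeR adjusted p = 2.24e-06) led the rises, and Trmt61b at -0.77 and Osgepl1 at -0.60, both tRNA-modifying enzymes, the falls. The 20 aminoacyl-tRNA synthetases held 9 rises, led by Ears2 and Pars2 at 1.13 each, and 5 falls, led by Mars2 at -1.42. Lars2, the leucine enzyme, fell by 0.86 on the log2 scale (edgeR adjusted p = 0.00294), from a mean of 8076 ± 1896 to one of 4437 ± 897 CPM (SD, n = 4). The WT means of Ears2, Pars2 and Mars2 were far lower, at 8.93, 5.27 and 14.8 CPM. No transcript of Lars2 shared a 31-base word with CT010467.1, but other rRNA sequences were not compared. The part of rRNA reads in the counts of Lars2 was not tested. The 11 translation factors held 3 rises, with Tsfm at 0.97 and Gfm1 at 0.36, and 3 falls, with Mtrf1 at -0.45 and Gfm2 at -0.39. The call for Gfm1 (edgeR adjusted p = 0.0323) was lost in 5 of the fits without 1 library, with adjusted p up to 0.0896. Among 14 genes for the outer membrane, inner membrane and matrix, 28.6% were called, beside 53.6% over all genes tested, and 10 did not pass. Hspd1 at 0.96 and Immt at 0.91 rose, and the porins Vdac3 at -0.47 and Vdac2 at -0.36 fell. Immt overlapped between the genotypes, at 88.5, 181, 198 and 156 CPM in KO and 70.1 to 94.3 CPM in WT. Of 7 regulators of mitochondrial biogenesis 42.9% were called. Pprc1 at 0.51 and Nrf1 at 0.32 rose and Gabpb1 at -0.64 fell, Nrf1 with an edgeR adjusted p of 0.0487 that was above 0.05 in 8 alternatives, at up to 0.127. Beside these, 1 of 10 neural progenitor markers rose (Nes at 1.15) and 2 fell (Fabp7 at -0.73 and Vim at -0.54), so that 30.0% were called. None of the 7 neuron markers tested rose and 6 fell, 85.7% of them, among them Dcx at -1.45 and Tubb3 at -1.38. Of the markers tested for other cells, 2 of 2 for microglia and 4 of 5 for meningeal fibroblasts rose, at low levels. Markers this low can pass the filter through 1 genotype alone. Progenitor markers summed to 7473 to 7892 CPM in WT and 5343 to 6142 CPM in KO, and none of them was at 0. Neuron markers summed to 243 to 351 CPM in WT and 223 to 308 CPM in KO. Microglia markers summed to 0.873 to 1.18 CPM in WT and 1.42 to 1.97 CPM in KO, with 5 of 6 under 1 CPM, and meningeal fibroblast markers to 0.469 to 0.685 CPM in WT and 3.84 to 4.63 CPM in KO, with 3 of 6 under 1 CPM. Their part in the mitochondrial values was not tested.

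The long-read assemblies give the ends of mitochondrial structures as assembled, with no replicate error, since each pools its replicates. FLAIR held 17 structures on the mitochondrial genome for native RNA of WT and 19 for KO, and all 17 WT structures carry the names of KO structures, so the native FLAIR sets of the genotypes are not independent. For direct cDNA it held 33 structures in WT and 43 in KO, with no shared names. All of these had 1 exon, and in each of the 4 FLAIR assemblies all 13 protein genes were covered over 90% of their length or more, on either strand. The strand given to a structure often differed from that of the gene, and 6 to 8 of the 13 protein genes were covered on their own strand.

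Several structures had the same ends, within 10 bases, in both chemistries or in both genotypes. Equal ends in native WT and native KO follow from the shared names, so these assemblies do not count as separate sources. A structure of 1614 bases (chrM:5328-6941) was found in all 4 FLAIR assemblies. It spanned the bases from the first of mt-Co1 past its stop codon to the far end of mt-Ts1. Its label was - in each assembly, the strand of mt-Ts1 and not that of mt-Co1. One of 842 bases in both cDNA assemblies (chrM:7766-8607) held mt-Atp8 and mt-Atp6 together, with the ends of the pair as annotated. A structure of 852 bases (chrM:8607-9458) held mt-Co3 with the tRNA gene mt-Tg after it. The stretch chrM:11742-14144 of 2403 bases, in 3 of the 4 assemblies and labelled - in each, covered mt-Nd6 and mt-Te on that strand and mt-Nd5 on the other. mt-Rnr2 was covered from end to end (chrM:1094-2675) in 3 assemblies of both chemistries and mt-Nd1 (chrM:2751-3707) in 3. mt-Cytb (chrM:14145-15288) had such a structure in both cDNA assemblies. In native RNA, structures that held neighbours together were also present, such as mt-Rnr2 with mt-Tl1 and mt-Nd1 over 2612 bases, and mt-Nd2 with mt-Co1 over 3028 bases. Structures covering more than 1 protein gene numbered 7 of 17 in native WT, 7 of 19 in native KO, 3 of 33 in cDNA WT and 5 of 43 in cDNA KO. The 7 of native WT and of native KO were the same structures.

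StringTie assembled 9 mitochondrial structures from native RNA of WT and 6 of KO, all on the + strand, and 25 from cDNA of each genotype. Spans in native RNA reached 14253 bases in WT and 14184 bases in KO, and 8 of 9 and 6 of 6 structures had more than 1 exon. The annotated mitochondrial genes have no introns, and all FLAIR structures had 1 exon. A WT structure of 14253 bases held 5701 bases in exons and left out the whole of mt-Co1. Such joins are models of the assembler, and their presence in RNA was not tested. The TPM that StringTie gave to mitochondrial structures summed to 20060.5 in native WT (2.01% of the assembly's TPM), 28244 in native KO (2.83%), 17911 in cDNA WT (2.13%) and 4989 in cDNA KO (0.600%). KO was thus higher than WT in native RNA and lower in cDNA, in pooled assemblies that allow no test. Structures within the chromosome 1 copy carried 10526 TPM in native WT and 2526 TPM in native KO, so that gene and copy together came to 30586 and 30770 TPM, 3.06% and 3.08% of the assembly. In cDNA, structures within the copy carried 1329 TPM in WT and 993 TPM in KO, and the sums were 19239 and 5981 TPM. Structures that overlap the copy but reach beyond it were left out of these sums. With them the copy came to 2308 TPM in cDNA WT and 1826 TPM in cDNA KO, and to 10526 and 2908 TPM in native WT and KO.

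The totals of estimated counts, rounded to 6 digits, were 103752000 to 126922000 in WT ladder, 104900000 to 118198000 in KO ladder and 12084500 to 13987900 in standard libraries. Mitochondrial genes thus had 65913 to 103614 counts in a WT ladder library, 33426 to 44365 in a KO ladder library and 267894 to 283957 in a standard library. Floors cover counting error alone, since reads without molecular identifiers are not independent molecules.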

How the data were processed

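Estimated counts and TPM per target were deposited by the authors from kallisto (version not stated there); STAR 2.5.4b and StringTie also stand in the submitters' processing notes. The sources used here do not say how the 7 bands were combined. The TPM values were deposited as kallisto scaled them, to 1000000 in each library. Long-read structures were deposited as GTF files from FLAIR and from StringTie 2.0, the latter per the file headers, with minimap2 2.17 in the submitters' processing notes and GRCm38 coordinates.

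Estimated counts were summed per GENCODE M21 gene and rounded to whole numbers. edgeR 4.0.16 (R 4.3.3) with TMM and its filter for at least 10 counts fitted KO against WT ladder libraries, and WT ladder against standard libraries over 105848 shared targets, by the quasi-likelihood test, with p-values adjusted by Benjamini-Hochberg across every gene tested and a threshold of 0.05. Tested alternatives were DESeq2 1.42.0, limma 3.58.1 on log2(TPM + 0.1), other scalings, no filter, a replicate block, each library left out, rRNA genes left out and nuclear copies summed. The last was added after the data were seen for the library types. Copies were found with BLAST+ 2.17.0 at 90% identity over 100 bases, and summed at 99%. A gene counted as covered by a structure at 90% of its length. The fits were tested on simulated data. The members and gene lists were chosen with earlier results of these data known. Named were all protein and rRNA genes, tested tRNA genes, Polrmt, Tfam, Tfb2m, Lrpprc and Slirp, up to 2 largest rises and 2 largest falls of each nuclear list among called genes whose mean log2 CPM was at least 1, and copies with 10 CPM or more in a ladder library. Depths ran from 12084500 to 126922000 estimated counts.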

Additional observations from a re-analysis of the deposited data

Results flagged for a closer look

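In each group of 4 ladder libraries, the gap of the highest or lowest value to its nearest neighbour was divided by the group's range and compared with Dixon's 95% critical value for 4 samples. Of 138 groups checked 14 exceeded it, where chance gives about 1 in 20.

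Among the mitochondrial genes, mt-Co1 was at 72.0 CPM in KO replicate 4, beside 58.2 to 59.0 CPM in the other KO libraries. mt-Tc was at 0.0371 CPM in KO replicate 1, which rests on a difference of 1 count from the others. The tRNA share of counts was 0.000670% in WT replicate 1, beside at most 0.000494% in the other WT libraries.

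Of the nuclear copies, 3 were highest in WT replicate 1: Gm28437 at 39.3 CPM with the next at 5.36, Gm28661 at 118 CPM with the next at 58.2, and Gm29216 at 43.4 CPM with the next at 16.1. Gm10925 was at 10.5 CPM in KO replicate 2, with the next KO library at 0.879 CPM. WT replicate 1 was also the library with the highest share of nuclear rRNA, 9.40%, and the part of that share in these values was not tested.

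Among the nuclear genes, the high values were Trmt61b at 2.85 CPM in WT replicate 1, Pnpt1 at 55.3 CPM in WT replicate 2 and Tubb3 at 25.5 CPM in WT replicate 3. The low values were Primpol at 5.01 CPM in WT replicate 3, Gfm2 at 29.1 and Nrf1 at 17.5 CPM in WT replicate 2, and Ears2 at 18.4 CPM in KO replicate 4.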

How the results depend on the processing

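All 12 mitochondrial calls between the genotypes were made again with the other scalings, limma, DESeq2 (13 calls of 29 tested), no filter (14 of 36) and copies summed (13), and leaving out 1 library gave 12 to 13 calls. Of all 38215 genes with counts, 13.1% were lower and 14.8% higher without the filter. In DESeq2 11.8% of them were lower and 14.6% higher, genes without an adjusted p included in the total. With copies summed 27.2% of 18683 genes were lower. With the replicate block there were again 12 calls in each comparison; same-numbered libraries did not deviate together (correlations of 0.00946 to 0.0383), and none matched its own number best. The block left 47 of the 50 calls among the nuclear genes, 41 to 51 were called without 1 library, and without the filter 35 were higher and 11 lower. Between library types 12 genes were called, or 13 with limma and without standard replicate 1 (12 to 13 without 1 library); the median over all genes moved by -0.31 without TMM, 0.22 without the filter, -0.26 in DESeq2 and -1.52 in limma. The mitochondrial share was 0.0707% to 0.0799% in WT, 0.0329% to 0.0348% in KO and 1.99% to 2.12% in standard libraries without 1 library, and 0.0389% in KO over annotated targets alone.

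Directions turned for genes near 0 (log2 fold change): mt-Nd2 at 0.0062 without the filter, 0.0093 in DESeq2 and 0.042 in limma, mt-Nd4 at 0.0019 in limma, and Tfam at 0.014 both without the filter and in DESeq2. Without 1 library, mt-Nd1 ran from -0.13 to 0.097, mt-Nd2 from -0.14 to 0.036, mt-Atp6 from -0.34 to 0.0088, Tfam from -0.059 to 0.0073, Tfb2m from -0.15 to 0.11 and Gm28437 from -1.62 to 0.92, the last without WT replicate 1. Against standard libraries mt-Atp8 was at -1.55 in limma. Gm10925 was called without KO replicate 2 (-4.70, edgeR adjusted p = 0.0177) and Gm28661 with the replicate block (-0.51, edgeR adjusted p = 0.0372). Calls for Gfm1, Gfm2, Mterf1a, Nrf1, Primpol, Ptcd3, Rnaseh1 and Vdac2 were lost in at least 1 alternative. The cause was not tested for any of these. Few counts limit mt-Tc and mt-Ty, and 18 tRNA genes could not be tested.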
